A study of Mus musculus with 12 samples.

Results

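A set of 10 genes of secreted chemokines and cytokines that are linked to senescent fibroblasts and to the support of myeloid cells was read from every library: Ccl2, Ccl7, Ccl8, Cxcl1, Cxcl5, Cxcl12, Cx3cl1, Il6, Lif and Csf1. They were chosen by name, as 10 of the 20661 genes counted, and all 10 symbols were found. The cells were MEFs, primary fibroblasts grown from mouse embryos, at passage 4. WT-shSCR MEFs were wildtype cells (strain label C57BL/6J) with a lentiviral control hairpin, shSCR, and libraries with the label WT-shARF came from wildtype cells of the same strain label with a hairpin against Arf. Arf-/- shSCR MEFs (strain label B6.129X1-Cdkn2atm1Cjs/KaiJ) carried a germline deletion of the first exon of Arf and the same control hairpin. All 3 groups thus carried a hairpin vector and had passed a puromycin selection, and the strain label differed with the genotype, so the 2 cannot be told apart. The study's methods name B6129SF2/J for wildtype MEFs in place of the labelled strain. Each group had 2 RNAseq and 2 ribosome profiling libraries, 12 in all, and ribosome profiling counts the mRNA fragments, or footprints, that a translating ribosome shields from nuclease.

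Chemokines are small secreted proteins that steer migrating leukocytes through G protein-coupled receptors, and their families are named for the spacing of the first cysteines of the mature protein. Cytokines such as interleukin 6 and leukaemia inhibitory factor signal through the shared receptor subunit gp130, while colony stimulating factor 1 keeps macrophages alive through the receptor tyrosine kinase Csf1r. Fibroblasts that senesce are known to release many of these proteins, a secretory state that draws on NF-kappaB and C/EBP beta, and ARF, one product of Cdkn2a, is known as an activator of p53 in such cells.

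The 7 chemokines are shown by the stretch of coding sequence around those cysteines, because it sets the families apart. In each line the codons of the first cysteine pair are in capitals, read from the longest complete coding sequence of the gene in GENCODE M21.
Ccl2: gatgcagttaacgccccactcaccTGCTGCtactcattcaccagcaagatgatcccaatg
Ccl7: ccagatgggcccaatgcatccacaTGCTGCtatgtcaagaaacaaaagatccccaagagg
Ccl8: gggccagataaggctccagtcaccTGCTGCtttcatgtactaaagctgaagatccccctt
Cxcl1: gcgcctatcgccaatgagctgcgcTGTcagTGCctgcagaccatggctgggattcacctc
Cxcl5: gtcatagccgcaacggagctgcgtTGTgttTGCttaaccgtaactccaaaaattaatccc
Cxcl12: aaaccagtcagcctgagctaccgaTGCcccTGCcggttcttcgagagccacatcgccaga
Cx3cl1: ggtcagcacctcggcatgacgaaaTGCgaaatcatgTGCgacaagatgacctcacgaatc
In the CC chemokines Ccl2, Ccl7 and Ccl8 the cysteine codons are adjacent. In the CXC chemokines Cxcl1, Cxcl5 and Cxcl12 1 codon lies between them, and in Cx3cl1, the sole CX3C chemokine, 3 codons do. Ccl2 (chromosome 11, 82035571 to 82037453), Ccl7 (82045712 to 82047525) and Ccl8 (82115185 to 82116799) lie in one cluster on the plus strand of GRCm38, the assembly that mm10 names, and Cxcl5 (90759360 to 90761624) and Cxcl1 (90891241 to 90893115) lie near each other on chromosome 5. Aligned coding sequences were 48.0% identical between Ccl2 and Ccl7 and 64.1% between Ccl7 and Ccl8. Their longest identical run was 17 bases among those 3 genes, and no window of 28 bases in any of the 10 coding sequences occurred in another gene's coding transcripts. Cxcl12 lies on chromosome 6 (117168535 to 117181367), Cx3cl1 on chromosome 8 (94772009 to 94782427), Il6 on chromosome 5 (30013114 to 30019981), Lif on chromosome 11 (4257557 to 4272514), and Csf1 on the minus strand of chromosome 3 (107741048 to 107760469).

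The 250 bases before the start site are shown for 4 genes at the ends of the range of levels described below, the abundant Cxcl12 and Csf1 and the scarce Il6 and Cxcl1. They come from RefSeq on GRCm38.p6, which held 7 of the 10 genes. Both strands were searched for the NF-kappaB consensus, the AP-1 motif TGANTCA and the TATA box TATAAA, and matches are in capitals.
Cxcl12, chr6:117168285-117168534, plus strand: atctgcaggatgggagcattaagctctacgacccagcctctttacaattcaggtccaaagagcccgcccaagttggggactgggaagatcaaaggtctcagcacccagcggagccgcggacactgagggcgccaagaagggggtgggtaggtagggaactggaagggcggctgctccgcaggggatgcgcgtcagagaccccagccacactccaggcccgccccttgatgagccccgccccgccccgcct
Csf1, chr3:107760470-107760719, minus strand: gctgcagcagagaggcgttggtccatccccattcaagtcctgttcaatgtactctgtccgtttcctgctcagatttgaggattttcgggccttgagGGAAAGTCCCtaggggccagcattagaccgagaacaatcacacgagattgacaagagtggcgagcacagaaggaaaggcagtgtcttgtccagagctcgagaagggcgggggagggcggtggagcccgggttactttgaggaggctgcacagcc
Il6, chr5:30012864-30013113, plus strand: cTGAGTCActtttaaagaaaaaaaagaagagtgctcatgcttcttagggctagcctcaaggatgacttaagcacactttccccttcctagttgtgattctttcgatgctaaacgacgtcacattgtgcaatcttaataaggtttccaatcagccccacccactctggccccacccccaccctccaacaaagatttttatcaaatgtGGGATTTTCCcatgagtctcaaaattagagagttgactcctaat
Cxcl1, chr5:90890995-90891244, plus strand: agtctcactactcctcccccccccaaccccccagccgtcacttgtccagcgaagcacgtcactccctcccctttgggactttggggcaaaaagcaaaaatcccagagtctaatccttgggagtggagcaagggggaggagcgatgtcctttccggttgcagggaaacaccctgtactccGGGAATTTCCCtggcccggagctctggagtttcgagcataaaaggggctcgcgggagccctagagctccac
A match to the NF-kappaB consensus lay 71 bases before the start site in Cxcl1, where another overlapped it by all but 1 base, 44 bases before it in Il6, 154 in Csf1 and 178 in Lif. Il6 and Lif also held an AP-1 match, and Ccl8 and Cx3cl1 a TATA box match. None of the 3 motifs was found in the window of Cxcl12. Of 32851 promoter windows of this length, 7.25% held the NF-kappaB consensus, 6.75% the AP-1 motif and 12.4% the TATA box. Such matches describe letters and not binding.

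An RNAseq library held 1578627 to 3989908 reads on genes, and a ribosome profiling library 2544319 to 5157572. Levels are CPM (read counts scaled to the library total and by edgeR's TMM factors), given as mean ± SD of 2 libraries per group. Cdkn2a, counted over the exons of both ARF and INK4A, so that it does not report on Arf alone, had 44.8 and 41.4 CPM of RNA in WT-shSCR and 27.7 and 32.4 CPM in Arf-/- shSCR MEFs. In the WT-shARF-labelled libraries it had 638 and 678 CPM, which went against that label, so directions read from these libraries rest on their label. The paper reports an immunoblot of the ARF knockdown in MEFs, a measure of protein that these counts do not give. The fibroblast markers Col1a1, Col1a2 and Col3a1 were high throughout, and the summed RNA level of 15 fibroblast markers was 22884 to 26220 CPM in WT-shSCR libraries, 24328 to 25009 CPM in the WT-shARF-labelled libraries and 17721 to 18958 CPM in Arf-/- shSCR libraries. The summed RNA level of 20 macrophage markers was 807 to 832 CPM in WT-shSCR libraries, 327 to 405 CPM in the WT-shARF-labelled libraries and 76.8 to 129 CPM in Arf-/- shSCR libraries. Their footprints were 944 to 963, 381 to 468 and 72.6 to 93.9 CPM. For 9 mesothelial markers the sums by group, in that order, were 95.6 to 99.5, 60.5 to 68.5 and 179 to 204 CPM of RNA, and 91.6 to 116, 75.3 to 99.2 and 236 to 236 CPM of footprints. Of the defining mesothelial markers, Upk3b and Lrrn4 had 0 footprint counts in both WT-shSCR libraries and Msln had 7 and 2. The summed level of 7 endothelial markers stayed between 11.8 and 40.7 CPM in every library. Of its defining markers Cdh5 had at most 5 counts in any library, while Pecam1 had 16 to 51 counts in RNA and at most 5 in footprints, and Kdr 22 to 59 and 40 to 87.

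Of the 10 genes, 6 had enough RNA reads to be tested and 4 were near the limit of detection. Among the 6, Lif had as few as 7 RNA counts in a library, Ccl7 9 and Ccl2 15. Csf1 and Cxcl12, which retains CXCR4-bearing progenitors in their niches, were the most abundant. Per kilobase of coding sequence, the RNA of WT-shSCR MEFs held 182 ± 14.2 CPM of Csf1 and 108 ± 18.7 CPM of Cxcl12 (SD, n = 2). These levels were above those of 96.6% and 94.3% of the genes with a coding length. Ccl7 (33.8 ± 19.9 CPM per kilobase), Ccl2 (26.5 ± 19.4) and Lif (25.8 ± 0.559) followed and overlapped each other in their libraries. Cx3cl1 had a lower mean, 13.2 ± 1.98 CPM per kilobase, but its libraries overlapped those of Ccl2. In footprints Cxcl12 came first at 382 ± 12.4 CPM per kilobase, followed by Csf1 at 341 ± 23.2, Ccl7 at 172 ± 20.7 and Ccl2 at 72.6 ± 3.40, with no overlap between these 4. Cx3cl1 (23.1 ± 0.214) and Lif (19.0 ± 7.07) overlapped. In Arf-/- shSCR MEFs the footprints of Ccl7 (262.1 ± 13.0 CPM per kilobase) and Csf1 (261 ± 21.5) overlapped, so that Ccl7 no longer stood below Csf1.

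The other 4 genes gave few counts. Ccl8, another ligand of the CC cluster, had 3 RNA counts in WT-shSCR replicate 1, 1 in Arf-/- shSCR replicate 1 and 0 in the remaining RNA libraries, and 0 footprint counts in all 6. A count of 0 allows up to 3 counts, which is 0.589 to 1.16 CPM in these footprint libraries, for counting error only. Cxcl1, a neutrophil chemokine, had at most 3 RNA counts in any library. Its footprint counts were 0 and 3 in WT-shSCR, 1 and 1 in the WT-shARF-labelled libraries and 10 and 3 in Arf-/- shSCR MEFs. Il6, a hallmark cytokine of the senescent secretome, had 2 to 6 RNA counts per library. Its footprint counts, by group in that order, were 3 and 4, 7 and 13, and 10 and 3, at 0.591 to 2.70 CPM. Cxcl5, a further neutrophil chemokine, is described with the knockout. Il6, Cxcl1 and Ccl8 thus stayed near the detection limit in every group.

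**Figure D1:**
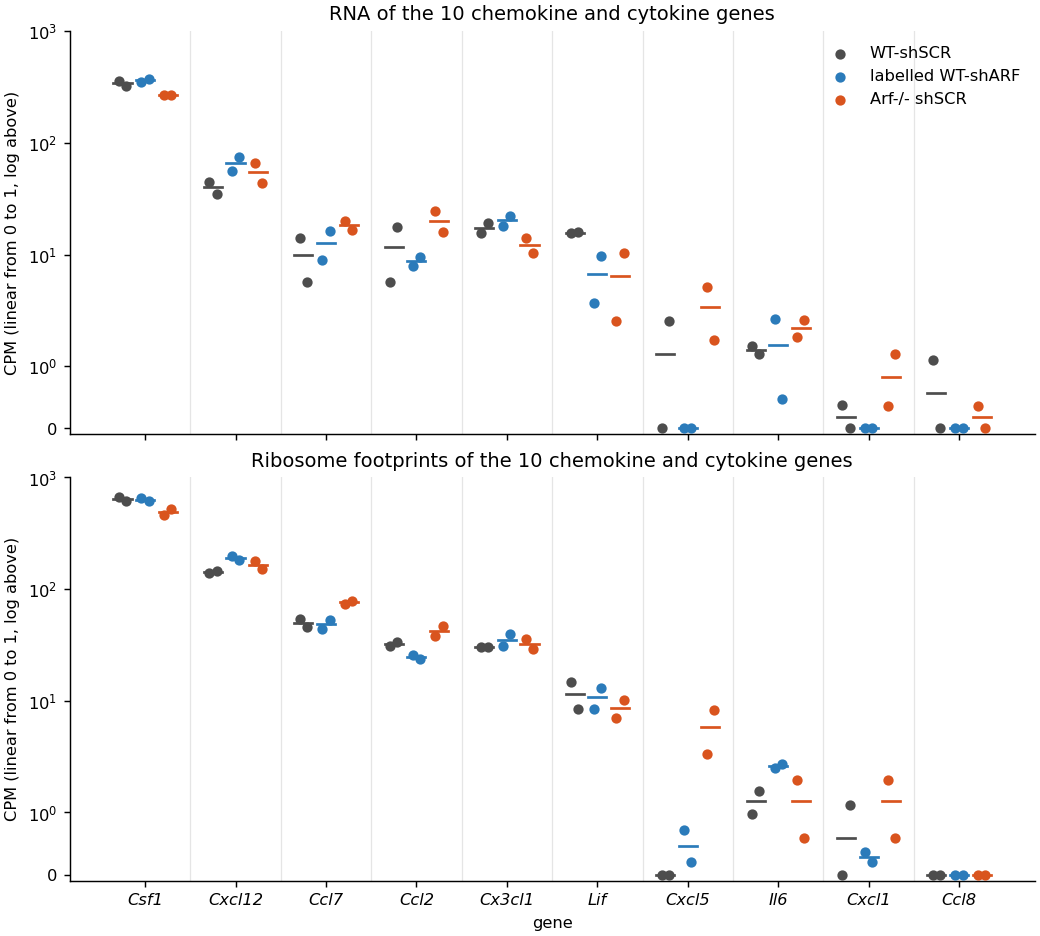
CPM of the 10 genes in each library, for RNA (top) and ribosome footprints (bottom), with 2 points per group, a line at their mean, and an axis that is linear from 0 to 1 and logarithmic above. Csf1 and Cxcl12 lie highest in both assays, Ccl8 has no footprint in any library, and the Cxcl5 footprints of Arf-/- shSCR MEFs (3.34 and 8.27 CPM) lie above those of the other groups (0 to 0.711 CPM).

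The chemokine mRNAs carried many footprints for their RNA. Both assays were counted on coding sequence, so the ratio of footprint CPM to RNA CPM compares a gene with itself, relative to the other mRNAs of the library. In WT-shSCR MEFs the log2 of this ratio was 2.34 for Ccl7, 1.83 for Cxcl12 and 1.46 for Ccl2, against a median of -0.04 over 9069 genes with at least 20 counts per group and assay. These ratios were above those of 99.7%, 98.6% and 96.5% of these genes. Csf1 (0.91) and Cx3cl1 (0.81) lay above 88.2% and 85.8%, while Lif (-0.44) lay above 30.8%. Set against the 1000 genes nearest in coding length, the shares were 99.3% for Ccl7, 96.8% for Cxcl12, 93.3% for Ccl2, 89.3% for Csf1, 86.2% for Cx3cl1 and 21.4% for Lif. The RNA of Ccl7 rested on 37 and 9 counts and that of Ccl2 on 15 and 28, and over the 4 pairings of a footprint with an RNA library the log2 ratio ran from 1.71 to 3.24 for Ccl7 and from 0.80 to 2.56 for Ccl2. The order of the 3 chemokines is therefore not settled by these libraries. In the other groups the ratios of Ccl7 and Cxcl12 stayed above 97.3% of the genes, and Ccl2 lay above 97.2% in the WT-shARF-labelled libraries and above 91.0% in Arf-/- shSCR MEFs. Against the genes nearest in coding length, the shares of Ccl2 in these groups were 93.4% and 83.1%, in that order. Those of Cxcl12 were 93.5% and 94.1%, and those of Ccl7 97.5% and 98.1%. For Cx3cl1 the log2 ratio was 0.80 in the WT-shARF-labelled libraries and 1.40 in Arf-/- shSCR MEFs. These shares describe levels and were not tested.

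**Figure D2:**
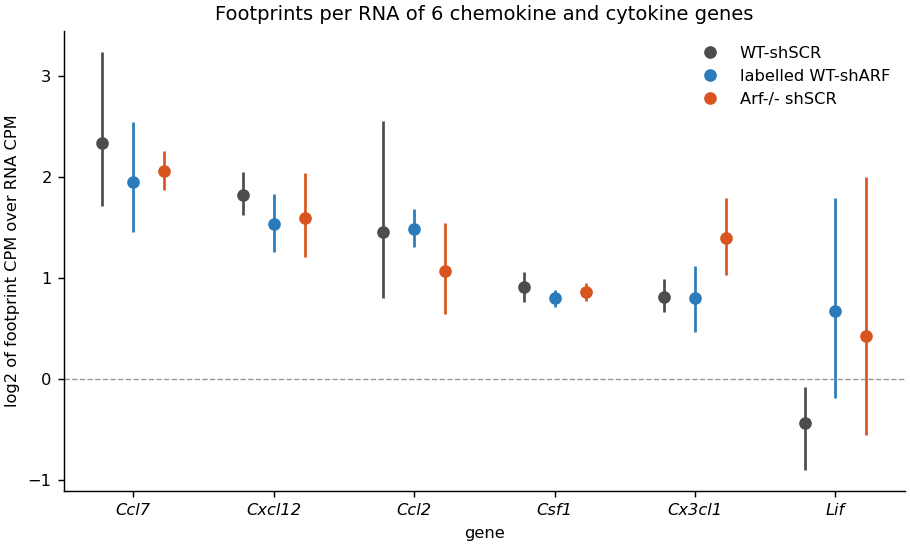
Log2 ratio of footprint CPM to RNA CPM of the 6 genes with at least 20 counts per group and assay, as the ratio of the group means (points) and the lowest and highest of the 4 pairings of single libraries (lines), for the 3 groups. Ccl7, Cxcl12 and Ccl2 lie at 1.07 to 2.34 in every group, and Lif lies at -0.44 to 0.67.

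The comparison of Arf-/- shSCR with WT-shSCR MEFs asked what loss of Arf does to these genes. In Arf-/- shSCR MEFs the footprints of Csf1 were lower and those of Ccl7 and Cxcl5 were higher than in WT-shSCR MEFs, and no RNA of the 10 genes passed the test. Changes are log2 fold changes with their standard error (SE), and p-values of edgeR's quasi-likelihood test were adjusted by Benjamini and Hochberg's method over all genes tested, with calls at an adjusted p under 0.05. In RNA, 6 of the 10 genes had enough reads and 0 were called by edgeR, against 7.93% of the 10659 genes tested. Csf1 and Lif, 2 of the 6, had an unadjusted p under 0.05, and DESeq2 called 0. In footprints 7 were tested and 3 were called, against 18.5% of 10737 genes. Cxcl5 entered that test only through the group in which it is high, so it had to differ and adds nothing to the count.

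Csf1, the macrophage growth factor, had 672 and 610 CPM of footprints in WT-shSCR and 462 and 519 CPM in Arf-/- shSCR MEFs. The groups did not overlap, and the log2 fold change was -0.42 (SE 0.09, adjusted p = 0.000744, edgeR). Its RNA was 361 and 323 CPM against 269 and 270 CPM, also without overlap, a log2 fold change of -0.36 (SE 0.15) that missed the threshold (adjusted p = 0.149, edgeR). Ccl7, which recruits monocytes through CCR2, had 54.2 and 45.7 CPM of footprints in WT-shSCR and 73.6 and 79.0 CPM in Arf-/- shSCR MEFs. Both knockout libraries lay above both controls, with a log2 fold change of 0.57 (SE 0.17, adjusted p = 0.0172, edgeR). Its RNA was 13.9 and 5.73 CPM against 20.02 and 16.4 CPM (log2 fold change 0.80, SE 0.41, adjusted p = 0.255, edgeR).

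Cxcl5, whose protein attracts neutrophils through CXCR2, had 0 and 0 footprint counts in WT-shSCR and 17 and 42 in Arf-/- shSCR MEFs. Against a floor of 3 counts per library its footprints were at least 5.43-fold higher (adjusted p = 0.000611, edgeR). That call was lost without WT-shSCR replicate 1 (adjusted p = 0.185) or replicate 2 (0.167) and without Arf-/- shSCR replicate 2 (0.100). The RNA libraries held 0 and 4 counts in WT-shSCR and 14 and 4 in Arf-/- shSCR MEFs, too few to be tested, and they overlapped in counts. Even in the knockout the level stayed low, at 3.34 and 8.27 CPM of footprints. Upk3b, a mesothelial marker, moved with it, from 0 and 0 to 111 and 110 footprint counts. Of 9 mesothelial markers 8 were called higher in footprints (median log2 fold change 3.92), against 18.5% of 10737 genes called in either direction. Only 2 of the 9 had enough footprints to be tested without the Arf-/- shSCR libraries. The others entered through the group in which they are high, so their calls and the median add nothing. The part of mesothelial cells in the result was not tested.

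Ccl2, the main monocyte chemokine of the CC cluster, had 31.2 and 33.3 CPM of footprints in WT-shSCR and 38.1 and 46.9 CPM in Arf-/- shSCR MEFs. The groups did not overlap but the change missed the threshold (log2 fold change 0.36, SE 0.21, adjusted p = 0.258, edgeR). Its RNA was 5.65 and 17.8 CPM against 24.4 and 16.0 CPM, with overlap. Cxcl12 footprints were 138 and 145 CPM against 179 and 153 CPM (log2 fold change 0.20, SE 0.13, adjusted p = 0.324, edgeR). Lif, a gp130 cytokine known for keeping mouse stem cells undifferentiated, had 15.4 and 15.9 CPM of RNA in WT-shSCR and 2.55 and 10.4 CPM in Arf-/- shSCR MEFs. Those counts did not overlap, but the spread of the knockout libraries was wide and the log2 fold change of -1.33 (SE 0.51) missed the threshold (adjusted p = 0.123, edgeR). Without Arf-/- shSCR RNAseq replicate 2, the library with the higher value, it was -2.60 with an adjusted p of 0.00417 (edgeR). Lif footprints overlapped, at 14.6 and 8.52 against 7.06 and 10.2 CPM. Cx3cl1, a membrane-bound chemokine, had a log2 fold change of -0.48 in RNA (SE 0.37) and 0.06 in footprints (SE 0.23), neither past the threshold (adjusted p = 0.481 and 0.896, edgeR).

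Macrophages also make several of these proteins, and of their markers 16 of 18 were called lower in RNA and 17 of 18 in footprints after knockout. In bulk samples fewer cells of a type and less RNA per cell cannot be told apart, and the part of these cells in the changes of Csf1 and Ccl7 was not tested. Without WT-shSCR ribosome profiling replicate 1 or replicate 2, edgeR called 0 genes of the whole table in footprints, with 1359 higher and 1108 lower, or 1353 higher and 1200 lower, at an unadjusted p under 0.05. The log2 fold change of Csf1 was then -0.34 or -0.48 (adjusted p = 0.194 or 0.129). The rise of Ccl7 lost its call without any one of the 4 libraries, with adjusted p from 0.0760 to 0.192 (edgeR), and with DESeq2 (adjusted p = 0.0645).

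**Figure D3:**
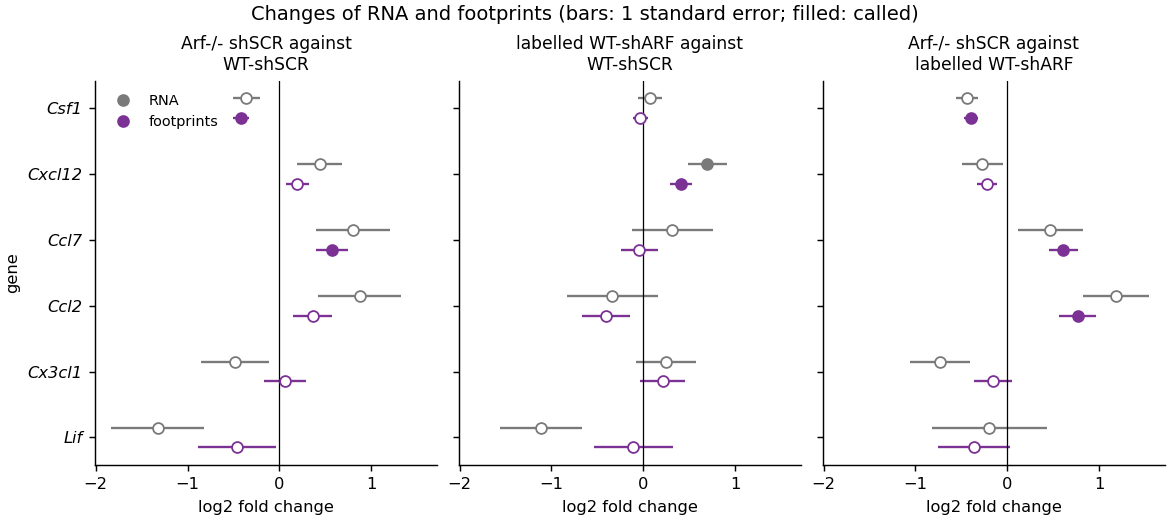
Log2 fold changes of RNA (grey) and footprints (purple) of 6 genes in 3 comparisons, with bars of 1 standard error and filled points for an adjusted p under 0.05 (edgeR). In both comparisons of Arf-/- shSCR MEFs the footprints of Csf1 are lower and those of Ccl7 higher, while in the WT-shARF-labelled libraries Cxcl12 is the called gene, in both assays; Cxcl5 is not drawn, since libraries at 0 counts give no size of its change.

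In the WT-shARF-labelled libraries, Cxcl12 was the only gene of the 10 that was called. In RNA 6 of the 10 genes were tested and 1 was called, against 7.28% of 10503 genes, and in footprints 6 were tested and 1 was called, against 11.1% of 10307 genes. Cxcl12 and Lif, 2 of the 6, had an unadjusted p under 0.05 in RNA (edgeR). Cxcl12 RNA was 44.8 and 35.0 CPM in WT-shSCR and 55.7 and 75.3 CPM in the WT-shARF-labelled libraries, a log2 fold change of 0.70 (SE 0.21, adjusted p = 0.0406, edgeR). Its footprints were 138 and 145 CPM against 199 and 181 CPM, a log2 fold change of 0.41 (SE 0.12, adjusted p = 0.0221, edgeR). Neither assay showed overlap between the groups. Both calls were lost with DESeq2 (adjusted p = 0.262 for RNA and 0.0692 for footprints). The RNA call was also lost with all 3 groups in one fit (adjusted p = 0.0960, edgeR), without WT-shSCR replicate 2 (0.134) and without replicate 2 of the WT-shARF-labelled libraries (0.511). The footprint call was lost without WT-shSCR replicate 1 (0.0903) and without replicate 1 (0.291) or replicate 2 (0.0626) of the WT-shARF-labelled libraries.

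The remaining genes did not pass the test in that comparison. Csf1 footprints were 672 and 610 CPM in WT-shSCR and 651 and 611 CPM in the WT-shARF-labelled libraries, and they overlapped (log2 fold change -0.03, SE 0.08, adjusted p = 0.869, edgeR). Ccl7 footprints overlapped as well, at 44.4 and 52.8 CPM in the WT-shARF-labelled libraries (log2 fold change -0.04, SE 0.20). Ccl2 footprints were 25.6 and 23.5 CPM, below both WT-shSCR libraries, with a log2 fold change of -0.41 (SE 0.26, adjusted p = 0.372, edgeR). Lif RNA was 3.72 and 9.74 CPM, also below both controls, with a log2 fold change of -1.12 (SE 0.45, adjusted p = 0.134, edgeR). Lif footprints overlapped (log2 fold change -0.11, SE 0.43). For Cx3cl1 the log2 fold change was 0.25 in RNA (SE 0.32) and 0.21 in footprints (SE 0.24), neither past the threshold. Cxcl5 had 0 RNA counts in both libraries and 2 and 1 footprint counts, and it was not tested, nor were Il6, Cxcl1 and Ccl8. Of the macrophage markers, 7 of 19 were called lower in RNA and 10 of 19 in footprints, and of the fibroblast markers 4 of 13 were called higher in RNA and 6 of 14 in footprints, with 1 called lower in each. The part of these cells in the change of Cxcl12 was not tested.

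The knockout and the WT-shARF-labelled libraries were then set against each other, a comparison that does not use the WT-shSCR libraries. Footprints of the CC chemokines Ccl2 and Ccl7 were higher in Arf-/- shSCR MEFs and those of Csf1 were lower. In RNA 6 of the 10 genes were tested and 0 were called by edgeR, against 2.57% of 10632 genes, while 3, Ccl2, Csf1 and Cx3cl1, had an unadjusted p under 0.05 and DESeq2 called 0. In footprints 8 were tested and 4 were called, against 8.23% of 10941 genes. The fourth was Cxcl5, which entered only through the group in which it is high and so adds nothing to the count. Ccl2 footprints were 25.6 and 23.5 CPM in the WT-shARF-labelled libraries and 38.1 and 46.9 CPM in Arf-/- shSCR MEFs (log2 fold change 0.77, SE 0.20, adjusted p = 0.0248, edgeR). Ccl7 footprints were 44.4 and 52.8 CPM against 73.6 and 79.0 CPM (log2 fold change 0.61, SE 0.16, adjusted p = 0.0213, edgeR). Csf1 footprints were 651 and 611 CPM against 462 and 519 CPM (log2 fold change -0.39, SE 0.08, adjusted p = 0.00337, edgeR). In none of the 3 did the groups overlap.

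Cxcl5 had 2 and 1 footprint counts in the WT-shARF-labelled libraries and 17 and 42 in Arf-/- shSCR MEFs, a ratio of 14.7 with a 95% counting interval from 4.80 to 73.5 (adjusted p = 0.0153, edgeR). Il6 also entered through 1 group. Its footprints, 2.49 and 2.70 CPM in the WT-shARF-labelled libraries and 1.96 and 0.591 CPM in Arf-/- shSCR MEFs, missed the threshold (adjusted p = 0.535, edgeR). Ccl2 RNA was 7.96 and 9.51 CPM against 24.4 and 16.0 CPM, without overlap, and missed the threshold with a log2 fold change of 1.18 (SE 0.36, adjusted p = 0.106, edgeR). Csf1 RNA, 353 and 373 CPM against 269 and 270 CPM, missed it as well (log2 fold change -0.44, SE 0.12, adjusted p = 0.0848, edgeR). The log2 fold changes of Cxcl12 were -0.27 in RNA (SE 0.22) and -0.22 in footprints (SE 0.11), those of Cx3cl1 -0.73 (SE 0.33) and -0.16 (SE 0.21) and those of Lif -0.20 (SE 0.63) and -0.36 (SE 0.39), none past the threshold. Cxcl1 and Ccl8 had too few counts to be tested. Mesothelial markers were higher here too, with 9 of 9 called in footprints (median log2 fold change 2.57), and macrophage markers lower, with 11 of 18 called. Over all genes tested, 8.23% were called in either direction. Most of the mesothelial markers again entered only through Arf-/- shSCR MEFs, so their count and its median add nothing. Some macrophage markers entered only through the WT-shARF-labelled libraries, so such calls add nothing either. Tyrobp was among them, with 37 and 33 footprint counts there against 2 and 6. The part of either cell type was not tested. Without replicate 1 of the WT-shARF-labelled libraries, edgeR called 0 genes of the whole table in footprints, with 743 higher and 710 lower at an unadjusted p under 0.05, and without replicate 2 it called 1, which was not one of the 10. The adjusted p of the 4 genes then ran from 0.298 to 0.359. Without Arf-/- shSCR ribosome profiling replicate 2, Csf1 alone of the 10 genes was called. DESeq2 did not call Ccl2 (adjusted p = 0.0788).

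A change of translation efficiency is the fold change of footprints divided by that of RNA, tested as an assay by condition interaction in 8 libraries. For none of the 10 genes did it pass the threshold. After knockout 7 of them were tested and 0 were called, against 0.194% of 11314 genes. In the WT-shARF-labelled libraries 6 were tested and 0 were called, against 0.0354% of 11289 genes. For knockout against the WT-shARF-labelled libraries 7 were tested and 0 were called, against 0.043% of 11632 genes. Before adjustment edgeR put 1 gene, Cxcl5, under 0.05 after knockout and 0 in each of the other comparisons. With 0 footprint counts in WT-shSCR, Cxcl5 entered that test only through the knockout, so its p adds nothing. DESeq2 called 0 in all 3. Il6, Cxcl1 and Ccl8 had too few counts to be tested. Csf1 had the narrowest estimates, with log2 fold changes of translation efficiency of -0.09 (SE 0.17) after knockout and -0.09 (SE 0.16) in the WT-shARF-labelled libraries. For Ccl7 they were -0.23 (SE 0.39) and -0.35 (SE 0.44), and for Cxcl12 -0.27 (SE 0.27) and -0.28 (SE 0.24). For Ccl2 they were -0.57 (SE 0.49) and -0.09 (SE 0.53), for Cx3cl1 0.50 (SE 0.41) and -0.03 (SE 0.39), and for Lif 0.83 (SE 0.70) and 1.02 (SE 0.63). Between Arf-/- shSCR MEFs and the WT-shARF-labelled libraries the widest estimate after Cxcl5 was that of Lif, -0.16 (SE 0.75). In simulated counts with the depth of the knockout libraries, edgeR recovered 27% of 100 genes changed by a log2 of 1 in translation efficiency and 80% of 100 changed by a log2 of 2. The changed genes were drawn from those above a minimum of summed counts and were not matched in level to the 10 genes.

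The receptors of these ligands were mostly low, and Csf1r and Cx3cr1, both known from macrophages, fell. Of 17 receptors 7 had enough footprints to be tested, and 3 were called lower after knockout, with a median log2 fold change of -1.73 against 0.00 over all genes tested. Csf1r, the receptor of Csf1 and itself on the list of macrophage markers, had 101 and 89.5 CPM of footprints in WT-shSCR, 50.5 and 52.6 CPM in the WT-shARF-labelled libraries and 7.06 and 9.45 CPM in Arf-/- shSCR MEFs. The 3 groups did not overlap. It fell by 3.56 on the log2 scale after knockout (SE 0.22, adjusted p = 7.05e-14, edgeR) and by 0.89 in the WT-shARF-labelled libraries (SE 0.17, adjusted p = 0.000415, edgeR). Cx3cr1, the receptor of Cx3cl1, had 87 and 67 footprint counts in WT-shSCR, 73 and 102 in the WT-shARF-labelled libraries and 7 and 10 in Arf-/- shSCR MEFs, and fell by 4.03 after knockout (SE 0.44, adjusted p = 2.67e-08, edgeR). In RNA, 2 of 4 tested receptors, Csf1r and Cx3cr1, were called lower after knockout and 1 of 5, Csf1r, in the WT-shARF-labelled libraries. Against the WT-shARF-labelled libraries, Csf1r and Cx3cr1 were called lower in Arf-/- shSCR MEFs in both assays, 2 of 5 receptors tested in RNA and 2 of 7 in footprints.

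The ligands did not share the size of these falls. Csf1 footprints stayed at 462 to 672 CPM and Cx3cl1 footprints at 28.9 to 39.3 CPM over all 6 libraries. Il6st, the gp130 subunit that Il6 and Lif share, was the most abundant receptor subunit on the list, with mean footprints of 162 CPM in WT-shSCR, 179 CPM in the WT-shARF-labelled libraries and 182 CPM in Arf-/- shSCR MEFs. Ccr2, the main receptor of Ccl2, and Cxcr2, the receptor of Cxcl1 and Cxcl5, had 0 footprint counts in all 6 libraries. Cxcr4, the receptor of Cxcl12, had 0 to 18 footprint counts per library.

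**Figure D4:**
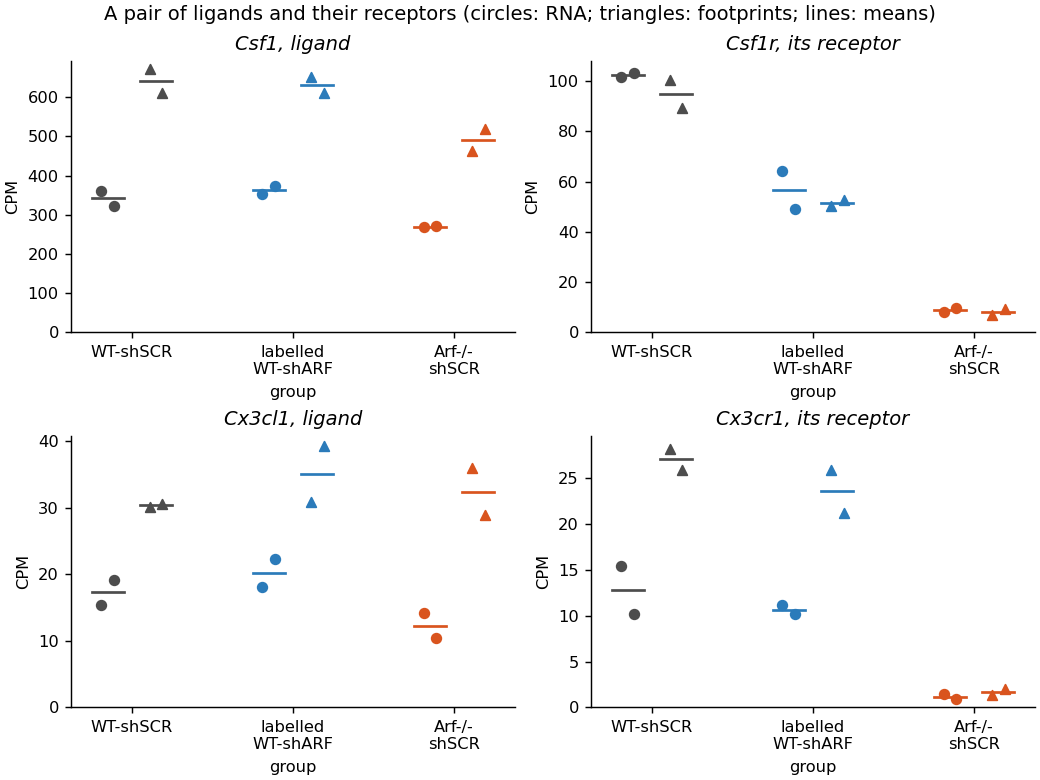
CPM of Csf1 and Cx3cl1 (left) and of their receptors Csf1r and Cx3cr1 (right) in each library, with circles for RNA, triangles for footprints and lines at the mean of 2 libraries, on axes that start at 0. Csf1r footprints are 101 and 89.5 CPM in WT-shSCR and 7.06 and 9.45 CPM in Arf-/- shSCR MEFs, whereas Cx3cl1 footprints keep to 28.9 to 39.3 CPM.

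Other chemokines were scarce. Of 34 others, 6 could be tested in footprints after knockout and 4 were called, all lower, where 18.5% of 10737 genes were called. The median log2 fold change of the 6 was -1.81 against 0.00 over all genes tested. Pf4, a platelet and macrophage chemokine, fell by 2.76 (SE 0.80, adjusted p = 0.0139, edgeR), and Ccl9, a chemokine of myeloid cells, fell by 2.89 (SE 0.59, adjusted p = 0.000517, edgeR). Cxcl16, a transmembrane chemokine, fell by 3.99 (SE 0.96, adjusted p = 0.00283, edgeR) and Cxcl14, an epithelial and fibroblast chemokine, by 0.86 (SE 0.31, adjusted p = 0.0492, edgeR). Cxcl16 had 20 and 9 footprint counts in WT-shSCR and 1 and 2 in Arf-/- shSCR MEFs. Pf4 had 26 and 9 against 2 and 7, and Ccl9 41 and 29 against 11 and 6. These 3 entered the test only through WT-shSCR, the group in which they are high, so their calls and the median add nothing. In RNA 2 of 4 were called, Pf4 and Ccl9, both lower and both again entering through WT-shSCR. In the WT-shARF-labelled libraries Cxcl14 was called in footprints, 1 of 8, and fell by 1.38 (SE 0.32, adjusted p = 0.00330, edgeR). No other chemokine was called in RNA there (0 of 5). Against the WT-shARF-labelled libraries, Ppbp was higher and Ccl20 and Cxcl16 were lower in footprints of Arf-/- shSCR MEFs, 3 of 8 tested, and 0 of 3 were called in RNA. Ccl20 (13 and 35 counts against 5 and 6) and Cxcl16 (10 and 15 against 1 and 2) also entered through the group in which they are high. The macrophage markers moved with Pf4, Ccl9 and Cxcl16, and their part was not tested.

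Of 37 other secreted factors of senescent fibroblasts, 22 were tested in footprints after knockout, with 2 called higher and 5 lower (median log2 fold change -0.31). Over all genes, 18.5% of 10737 were called in this comparison. Il1b, among the lower, had 11 and 8 counts in WT-shSCR and 3 and 0 in Arf-/- shSCR MEFs. It entered the test only through WT-shSCR, so its call adds nothing. Serpine2, a protease inhibitor, fell by 2.45 (SE 0.14, adjusted p = 1.74e-14, edgeR), and Igfbp7, an insulin-like growth factor binding protein, fell by 0.98 (SE 0.09, adjusted p = 3.68e-10, edgeR). Mmp3, a stromelysin, rose by 1.45 (SE 0.38, adjusted p = 0.00693, edgeR), and Hbegf, an EGF receptor ligand, fell by 0.57. In RNA, 1 of 18 was called higher, Mmp3, and 2 lower, Serpine2 and Igfbp7, against 7.93% of 10659 genes. In the WT-shARF-labelled libraries 4 of 21 were called in footprints, all lower, with Plau, Serpine2 and Plaur among them. Over all genes, 11.1% were called there in footprints and 7.28% in RNA. The protease urokinase, Plau, fell there by 1.22 in footprints (SE 0.11, adjusted p = 2.56e-09, edgeR) and by 0.84 in RNA (adjusted p = 0.000586, edgeR), and with Serpine2 it made up the 2 of 19 called in RNA. Between Arf-/- shSCR MEFs and the WT-shARF-labelled libraries, 4 of 22 were higher and 2 lower in footprints, against 8.23% of 10941 genes. Plau, Mmp3 and Plaur were among the higher, and Igfbp7 and Serpine2 were the lower.

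Calls on the NF-kappaB list went in both directions, and the share called over all genes is given beside each count. Of 35 tested in footprints after knockout, 1 was called higher and 3 lower, against 18.5% of 10737 genes. The median log2 fold change of the 35 was -0.08. Il1rl1, the receptor of interleukin 33, rose by 1.43 (SE 0.22, adjusted p = 8.83e-06, edgeR), while Ptgs2, the inducible cyclooxygenase, fell by 0.49 (SE 0.08, adjusted p = 1.20e-05, edgeR). The adhesion molecule Icam1 fell by 2.23 and Tnfaip3, a feedback inhibitor, by 0.82 (adjusted p = 0.0116 and 0.0337, edgeR). Icam1, with 25 and 24 counts in WT-shSCR and 9 and 10 in Arf-/- shSCR MEFs, entered only through WT-shSCR. Its call therefore adds nothing. In RNA, 2 of 34 were higher, Il1rl1 and Birc2, and 2 lower, Tlr2 and Tnfaip3, against 7.93% of 10659 genes. Tlr2, with 17 and 20 RNA counts in WT-shSCR and 5 and 3 in Arf-/- shSCR MEFs, also entered only through WT-shSCR. In the WT-shARF-labelled libraries, 1 of 35 was higher in footprints and 3 were lower, against 11.1% of 10307 genes. Vcam1, an adhesion molecule, rose there by 0.87 in footprints (SE 0.13, adjusted p = 8.33e-06, edgeR) and by 0.95 in RNA (adjusted p = 0.00221, edgeR), and Ptgs2 fell by 1.47 (SE 0.08, adjusted p = 2.01e-15, edgeR) and by 1.06 (adjusted p = 9.82e-06, edgeR). Those 2 were the calls in RNA there, of 35 tested, against 7.28% of 10503 genes. Between Arf-/- shSCR MEFs and the WT-shARF-labelled libraries, 3 of 35 were higher in footprints, Ptgs2, Il1rl1 and Chuk, and 3 lower, Vcam1 among them. In RNA 2 of 34, Ptgs2 and Il1rl1, were higher. Over all genes, 8.23% were called in footprints in this comparison and 2.57% in RNA. Ptgs2 footprints were thus lower than in WT-shSCR in both other groups, with means of 1129, 411 and 822 CPM in WT-shSCR, the WT-shARF-labelled libraries and Arf-/- shSCR MEFs.

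On the list of C/EBP, AP-1 and STAT3 factors and feedback genes, 18 were tested in footprints after knockout, where 18.5% of 10737 genes were called. Of the 18, 1 was called higher and 3 lower, Bcl6, Tyk2 and Fos. The higher one was Gata4, a GATA factor on that list, with 19 and 44 counts in Arf-/- shSCR and 2 and 1 in WT-shSCR MEFs. It entered the test only through the group in which it is high, so its call adds nothing. Bcl6, a transcriptional repressor, fell by 1.60 (SE 0.33, adjusted p = 0.000564, edgeR) and Fos, an AP-1 subunit, by 1.46 (SE 0.47, adjusted p = 0.0273, edgeR). Fos footprints also fell in the WT-shARF-labelled libraries, by 1.78 (adjusted p = 0.0225, edgeR), as did Stat3 by 0.57 (adjusted p = 0.00769, edgeR). These were 2 of 17 tested, against 11.1% of 10307 genes. Of the 12 proteins that bind AU-rich elements or degrade cytokine mRNA, 4 were called higher in footprints after knockout and 0 lower. In the WT-shARF-labelled libraries 0 were higher and 2 lower. The shares called over all genes were 18.5% and 11.1%, in that order. Hnrnpd, which destabilises AU-rich mRNAs, rose after knockout by 0.77 (SE 0.12, adjusted p = 1.41e-05, edgeR), Khsrp by 0.35 and Elavl1, which stabilises such mRNAs, by 0.35 (adjusted p = 0.0198 and 0.0310, edgeR). The fourth, Zc3h12c, scattered between libraries, with footprint counts of 329 and 2708 in Arf-/- shSCR and 215 and 118 in WT-shSCR MEFs. Of the proteases that trim chemokines and their inhibitors, 4 of 11 were called in footprints after knockout, all lower, against 18.5% of 10737 genes. The median log2 fold change of the 11 was -0.35. Mmp2 fell by 0.92, Timp1 by 0.66, Timp2 by 0.74 and Mmp9 by 1.84 (adjusted p from 9.58e-10 to 0.00269, edgeR).

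The genes whose levels over the 12 libraries, centred within each assay, were most like a member were sought among 7094 genes with a mean of at least 50 counts. For Cxcl12 they were Vcam1 (Pearson's r = 0.93), Slc7a6 (0.92) and Eif2s3x (0.92). For Csf1 they were Cdh2, P3h1 and Aldh1a3 (0.95 each). For Ccl2 they were Kdm3a (0.92), Hif1a and Esyt2 (0.89 each), and for Ccl7 Tmem123 and Mrpl21 (0.93 each) and Sumo2 (0.91). For Cx3cl1 the nearest was Fam198b (0.92), and for Lif it was Mrps21 (0.91). The 12 points fall into 3 groups and share their scaling, and the highest of so many correlations over 12 points is high by selection, so these values describe likeness in these libraries and carry no test.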

How the data were processed

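RNAseq and ribosome profiling libraries were analysed from 3 groups of MEFs, with 2 replicates per group and assay. The authors deposited raw counts, reads per gene on coding sequence, after trimming, alignment to mm10 and htseq-count with GENCODE annotation. Both assays used UMI adapters, which were cut off before mapping. Removal of duplicates by UMI is not given in the sources used here, and the htseq-count command given there names no strand option. RNA was fragmented and footprints were made with RNase T1, whose base preference can shape footprint counts. Of the deposited counts, 94.7% to 96.8% per RNAseq library and 57.1% to 64.8% per ribosome profiling library stood in 5 summary rows that name no gene, mostly reads without a unique position, and were left out.

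Counts were tested with edgeR 4.0.16 (R 4.3.3; quasi-likelihood, TMM factors, filterByExpr, Benjamini-Hochberg adjustment, calls at an adjusted p under 0.05) over the libraries compared, and translation efficiency as the interaction of assay and condition. DESeq2 1.42.0, other factors, filters, fits and blocks, and leaving out each library, were alternatives. Tests were checked on simulated counts, where edgeR recovered 68% of 100 genes changed by a log2 of 1 in the footprint comparison of the knockout. The changed genes there were drawn from those above a minimum of summed counts. Replicates are separate samples per the labels, and nothing says that they came from separate embryos, so p-values measure the spread between these samples, which may be technical. Counts of replicates differed beyond sampling noise in every group (chi-square per gene of 3.77 to 6.97). With 2 libraries against 2, an exact permutation test cannot go below p = 0.33 (two-sided), so none was used. A count of 0 allows up to 3 counts, and intervals cover counting error only.

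The 10 genes and the other lists were chosen with earlier results of these data known. Each of the 10 is given in every comparison, or said to have had too few counts. Of each other list the counts called are given, with up to 5 called genes of the smallest adjusted p, and the first 3 markers of a cell type count as defining. Some called genes of these lists are counted but not reported here by name. The knockout and knockdown comparisons share the WT-shSCR libraries. Likeness was ranked by Pearson's r over the 12 libraries for genes with a mean of at least 10 counts. Coding lengths are unions of GENCODE M21 coding sequence.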

Additional observations from a re-analysis of the deposited data

Results flagged for a closer look

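Among the 8 of the 10 genes tested, the footprints of Ccl2, Ccl7 and Csf1 differed between Arf-/- shSCR MEFs and the WT-shARF-labelled libraries by a direct test of one against the other, in which 8.23% of 10941 genes were called. The log2 difference was 0.77 for Ccl2, 0.61 for Ccl7 and -0.39 for Csf1 (edgeR, adjusted p = 0.0248, 0.0213 and 0.00337). Cxcl5 was called as well, with a fitted log2 difference of 3.73 (edgeR, adjusted p = 0.0153) from 3 counts against 59, but it entered the test only through the group in which it is high, and its size depends on the prior count. All 4 calls were lost without either WT-shARF-labelled ribosome profiling library. Cdkn2a RNA was higher in the WT-shARF-labelled libraries than in WT-shSCR, against that label, by a log2 of 3.91 (SE 0.16, adjusted p = 5.57e-18, edgeR). These counts hold INK4A as well as ARF.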

How the results depend on the processing

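Of the changes of single genes under the alternatives, 602 kept their direction and side of the threshold, 30 lost a call, 4 gained one and 38 turned direction. The number of the 10 genes called in RNA after knockout rose from 0 to 1 without a filter on low counts (Lif), and ran from 0 to 1 with 1 library left out. For knockout against the WT-shARF-labelled libraries in RNA it rose from 0 to 2 without a filter (Ccl2 and Cxcl5), and ran from 0 to 1. For the WT-shARF-labelled libraries against WT-shSCR, the 1 gene called in RNA became 0 with DESeq2 and 0 with all groups in one fit, and ran from 0 to 1, and the 1 in footprints became 0 with DESeq2 and ran from 0 to 1. With 1 library left out, the 3 called in footprints after knockout ran from 0 to 2, and the 4 against the WT-shARF-labelled libraries from 0 to 4. No gene of the 10 was called in translation efficiency under any alternative. The cause was not tested.

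With 1 library left out, these log2 fold changes turned direction. In RNA of the WT-shARF-labelled libraries, Ccl2 ran from -1.02 to 0.63, Ccl7 from -0.18 to 1.17 and Csf1 from -0.000502 to 0.15, and Lif RNA of the knockout against them ran from -1.48 to 0.73. In footprints Cx3cl1 ran from -0.10 to 0.21 after knockout and from -0.32 to 0.0246 against the WT-shARF-labelled libraries, where against WT-shSCR Ccl7 ran from -0.17 to 0.0781, Lif from -0.45 to 0.33 and Csf1 from -0.0944 to 0.0283. In translation efficiency after knockout Ccl2 ran from -1.49 to 0.18, Ccl7 from -1.09 to 0.17, Cxcl12 from -0.51 to 0.0751 and Csf1 from -0.17 to 0.0622 (0.0362 without a filter). In that of the WT-shARF-labelled libraries Ccl2 ran from -1.07 to 0.63, Ccl7 from -1.22 to 0.16 and Cx3cl1 from -0.23 to 0.15. Between those groups Ccl7 ran from -0.38 to 0.43, Cxcl12 from -0.23 to 0.41, Lif from -1.09 to 1.12 and Csf1 from -0.0398 to 0.13. Where 1 library was left in a group, it was assumed to vary like the other group.

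Replicate numbers did not pair the samples, with correlations of replicate differences between groups from -0.07 to 0.01 in RNA and from 0.01 to 0.04 in footprints. With the replicate block the genes of the 10 called numbered 0, 1 and 0 in RNA, 3, 1 and 4 in footprints and 0, 0 and 0 in translation efficiency, for the knockout, the WT-shARF-labelled libraries and the comparison of both, so it changed none of these counts.

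Over all genes, DESeq2 called 467 in place of 845 in RNA after knockout and 278 in place of 765 in the WT-shARF-labelled libraries (497 with all groups in one fit), and 1305 in place of 1988 and 706 in place of 1147 in footprints. Without a filter 617 in place of 273 were called in RNA for knockout against the WT-shARF-labelled libraries. In translation efficiency the 22 called after knockout ran from 19 to 123 over the alternatives that keep all libraries, the 4 of the WT-shARF-labelled libraries from 0 to 41 (39 with the replicate block) and the 5 between them from 5 to 81 (8 with the replicate block).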
